A study of Mus musculus with 8 samples.

Results

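The Rac and WAVE genes are the small GTPases *Rac1* and *Rac3* and the subunits of the WAVE regulatory complex, through which active Rac starts the building of branched actin. The 10 members were chosen by gene symbol from a named list, with *Cyfip1*, *Cyfip2*, *Nckap1*, *Abi1*, *Abi2*, *Wasf1*, *Wasf2* and *Wasf3* beside the 2 GTPases. All 10 were found among the 54532 entries of the count table and all 10 were among the 14150 genes with enough counts to be tested. The data were RNAseq read counts of primary lung fibroblasts (pFBs) grown from mice of the C57/black background, which per the study's methods were female. The 4 wild type libraries (WT1 to WT4) came from wild type mice. The 4 HOMO libraries (HOMO1 to HOMO4) came from mice homozygous for a human IGFBP5 transgene (hIGFBP5), placed by CRISPR/Cas9 knock-in and driven in all tissues by the elongation factor promoter Ef1a1. No treatment was given to either group, all cells were kept in complete media, and ages and the number of mice are not given in the sources used here. The cells had been expanded in culture, so the values describe cultured fibroblasts and not the lung itself. The labels do not say that each library came from its own mouse, so p-values measure only the spread between these libraries, which may in part be technical.

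Rac proteins switch between a resting form bound to GDP and an active form bound to GTP. The active form binds the Cyfip subunit of the WAVE complex, a resting assembly of Cyfip, Nckap1, Abi, Brk1 and a Wasf (WAVE) protein. This frees the tail of the Wasf protein, which turns on the Arp2/3 complex so that new actin branches grow at the leading edge of a moving cell. Most places in the complex can be filled by paralogs. *Cyfip2*, *Wasf1* and *Wasf3* are best known from the brain and *Rac3* from neurons, while *Rac1*, *Cyfip1*, *Nckap1*, *Abi1* and *Wasf2* are found in most tissues. The study examined the regulation of the actin cytoskeleton in these cells, and the question here was whether the mRNA of each member differed between HOMO and WT pFBs.

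*Wasf3* was upregulated and *Cyfip2* was downregulated in HOMO pFBs, and the other 8 of the 10 members were not called. A gene was called a differentially expressed gene (DEG) when edgeR's quasi-likelihood test gave an adjusted p below 0.05 and the log2 fold change (HOMO minus WT) was beyond 0.6 in either direction. Over all 14150 genes, 12.1% were DEGs, with 5.94% higher and 6.18% lower in HOMO, and the share of members called, 2 of 10, is by itself no result about the members. Levels are given as CPM, read counts scaled to a common library size with edgeR's TMM factors. The CPM of the groups did not overlap for 6 members, higher in HOMO for *Wasf1* and *Wasf3* and lower for *Rac1*, *Cyfip1*, *Cyfip2* and *Nckap1*. Over all genes tested the groups did not overlap for 27.3%, with 14.0% higher and 13.4% lower in HOMO. An unadjusted p below 0.05 was reached by 7 members and by 32.3% of all genes. The median log2 fold change was −0.35 over the 10 members and −0.04 over all genes tested.

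**Figure D1:**
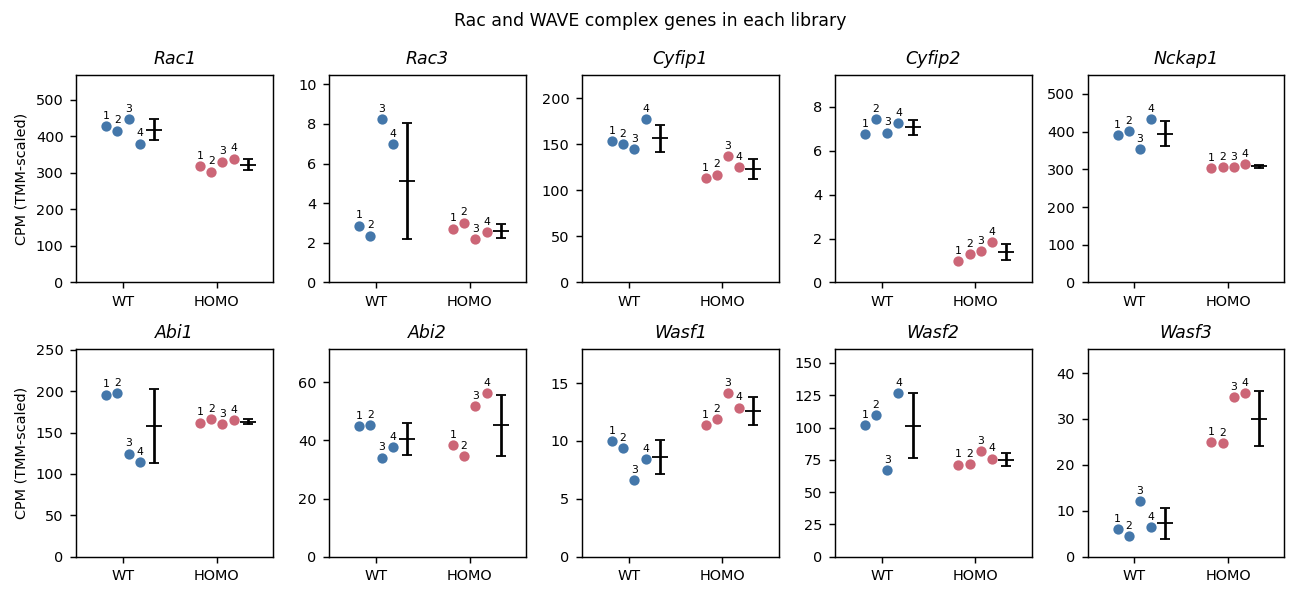
CPM of the 10 members in each library, each gene on its own linear axis from 0, with library numbers at the points and bars for the mean ± SD of each group (n = 4). The 4 HOMO libraries lie above all WT libraries for *Wasf3* (24.8 to 35.6 against 4.46 to 12.1 CPM) and below all WT libraries for *Cyfip2* (0.981 to 1.85 against 6.75 to 7.46 CPM).

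The libraries held 17236521 to 29028769 counts in WT and 19009027 to 31987790 in HOMO. The transgene is human and the reads were counted on mouse genes, so its level was not used to check the labels. Within the groups, WT1 was a near copy of WT2, HOMO1 of HOMO2 and HOMO3 of HOMO4, with a coefficient of variation beyond counting noise of 4.71% to 7.64% over genes, against 30.0% to 55.7% for the other pairs. They were kept as separate libraries because they differed by more than counting noise, and their sums were used as an alternative. Such a difference does not show that they came from separate cultures or mice. Here n = 4 therefore counts libraries, and a group may hold fewer independent units. Fits with WT3 and WT4 both left out keep only the near-identical WT1 and WT2 in WT. Adjusted p-values of those fits rest on a WT spread that may be technical, and they are not stronger evidence than the main fit. Fibroblast markers were high in all libraries, with sums of 9925 to 14029 CPM in WT and 12459 to 22319 CPM in HOMO, and 1 of 8 was called, lower in HOMO. Macrophage markers summed to 132 and 160.2 CPM in WT1 and WT2, to 1989 and 1164 CPM in WT3 and WT4, and to 58.1 to 193 CPM in HOMO, with 8 of 8 tested and none called. Proliferation markers summed to 863 and 777 CPM in WT1 and WT2 and to 117 and 51.1 CPM in WT3 and WT4. In HOMO1 to HOMO4 they summed to 131, 120.2, 640.4 and 596 CPM, with none of 4 called. WT3 and WT4 thus differed from WT1 and WT2 in both macrophage and proliferation markers. They were also higher in mesothelial markers (152 and 117 CPM, against 21.3 and 23.3 CPM in WT1 and WT2). The same held for smooth muscle and pericyte markers (289 and 93.6 CPM, against 34.5 and 30.5 CPM). Leaving both libraries out cannot tell these differences apart. The sums in WT and HOMO were 1.33 to 4.26 and 1.43 to 4.11 CPM for endothelial markers (none called), 0.338 to 5.57 and 3.88 to 11.6 CPM for epithelial markers (1 higher), 21.3 to 152 and 90.1 to 129 CPM for mesothelial markers (1 higher), 30.5 to 289 and 8.17 to 90.6 CPM for smooth muscle and pericyte markers (1 lower), and 43.2 to 189.8 and 28.9 to 46.1 CPM for neuronal and glial markers (1 higher and 1 lower). In bulk RNA, fewer cells of a type and less RNA per cell cannot be told apart.

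The Wasf proteins carry the tail that turns on Arp2/3, and 1 of the 2 called members is among them. The stretches of promoter before the first annotated exon are shown for the 3 Wasf genes, since these paralogs fill the same place in the complex and *Wasf3* alone among them was called. They are given 5′ to 3′ from RefSeq (GRCm38.p6) on the plus strand, for *Wasf1* at chr10:40883284-40883474, for *Wasf2* at chr4:133130383-133130504 and for *Wasf3* at chr5:146384756-146384984, and capitals mark the GC box motif GGGCGG or its reverse complement CCGCCC.
Wasf1: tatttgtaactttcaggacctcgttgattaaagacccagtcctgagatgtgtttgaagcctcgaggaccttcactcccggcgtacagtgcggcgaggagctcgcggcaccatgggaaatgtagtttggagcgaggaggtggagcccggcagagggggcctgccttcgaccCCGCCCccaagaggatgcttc
Wasf2: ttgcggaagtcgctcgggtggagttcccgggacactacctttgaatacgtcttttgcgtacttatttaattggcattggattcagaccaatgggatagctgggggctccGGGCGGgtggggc
Wasf3: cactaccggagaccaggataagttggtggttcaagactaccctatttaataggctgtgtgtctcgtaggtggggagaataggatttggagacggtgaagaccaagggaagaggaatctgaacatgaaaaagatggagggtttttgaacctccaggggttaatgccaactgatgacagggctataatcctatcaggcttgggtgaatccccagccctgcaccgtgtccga
Over the whole 250 bases before the RefSeq start, the motif was found once for *Wasf1*, 2 times for *Wasf2* and not at all for *Wasf3*, and 32.7% of the 32851 mouse promoter windows of this length held it on either strand. The windows held 15 CpG pairs at 58.4% GC for *Wasf1*, 23 at 63.2% GC for *Wasf2* and 5 at 49.2% GC for *Wasf3*, against a median of 6 pairs and 52.4% GC over all windows. These are counts of letters and say nothing of whether a factor binds there. A window was also found for *Rac3*, *Cyfip2* and *Abi1*, so 6 of the 10 members had 1.

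*Wasf3* (mouse genome GRCm38, chromosome 5, 146384985 to 146473615, plus strand) stood at 6.08, 4.46, 12.1 and 6.46 CPM in WT1 to WT4 and at 24.96, 24.8, 34.8 and 35.6 CPM in HOMO1 to HOMO4. Every HOMO library was above the highest WT library, WT3, and HOMO3 and HOMO4 were the highest of all. WT libraries averaged 7.28 ± 3.34 CPM and HOMO libraries 30.0 ± 5.98 CPM (SD, n = 4 each), a 4.13-fold difference. In edgeR's fit the log2 fold change was 2.05 (SE 0.32, 95% interval 1.32 to 2.77, edgeR adjusted p = 0.00766). It rested on 104 to 211 counts in WT libraries and 560 to 819 counts in HOMO libraries. With the near-identical libraries summed to 3 WT and 2 HOMO units it was 1.95 and no longer called (adjusted p = 0.252, edgeR), as was then true of every gene in the table. It was 2.51 (adjusted p = 0.00137, edgeR) with WT3 and WT4, the libraries with the most macrophage and the least proliferation marker RNA, both left out. Only the near-identical WT1 and WT2 were then left in WT, so that p-value rests on a spread that may be technical.

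*Wasf2* (chromosome 4, 133130505 to 133199756, plus strand), the widely expressed paralog, stood at 102, 109.6, 66.9 and 127 CPM in WT1 to WT4 and at 71.3, 71.4, 81.7 and 75.9 CPM in HOMO1 to HOMO4. The groups overlapped, because WT3 was below every HOMO library while the other WT libraries were above them all. WT libraries averaged 101 ± 25.2 CPM and HOMO libraries 75.1 ± 4.90 CPM (SD, n = 4 each), and the log2 fold change was −0.43 (SE 0.19, edgeR adjusted p = 0.154). Without WT3 it was −0.59 (adjusted p = 0.0121, edgeR) and without WT4 −0.31 (adjusted p = 0.274), so neither value passed the fold threshold. In WT4, the library with the highest *Wasf2*, the median gene of chromosome 4 also stood 0.36 above the other WT libraries on the log2 scale; its part in the result was not tested.

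*Wasf1* (chromosome 10, 40883475 to 40938570, plus strand) stood at 9.96, 9.39, 6.60 and 8.44 CPM in WT1 to WT4 and at 11.4, 11.9, 14.1 and 12.9 CPM in HOMO1 to HOMO4. All HOMO libraries were above all WT libraries, but by a small margin. WT libraries averaged 8.60 ± 1.47 CPM and HOMO libraries 12.6 ± 1.22 CPM (SD, n = 4 each). The log2 fold change of 0.55 (SE 0.19, 95% interval 0.11 to 0.98) was short of the call (edgeR adjusted p = 0.0888), and with WT3 and WT4 both left out it was 0.38 (adjusted p = 0.0771).

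Per kilobase of exon, which lets genes be set beside each other, the 3 Wasf mRNAs together held 20.6 ± 3.83 CPM per kb in WT and 22.2 ± 2.27 in HOMO (SD, n = 4 each). The log2 difference of this total was 0.12, with overlapping groups (2-sided exact permutation test over 70 assignments of the libraries, p = 0.6, adjusted p = 0.675 over the 9 ratios and totals tested). Within that total the *Wasf3* share was 5.57%, 3.96%, 15.2% and 5.09% in WT1 to WT4 and 23.8%, 23.4%, 27.1% and 29.2% in HOMO1 to HOMO4. The *Wasf2* share was 77.8 ± 5.77% (SD, n = 4) in WT and 54.3 ± 2.39% (SD, n = 4) in HOMO, and that of *Wasf1* was 14.7 ± 1.91% and 19.9 ± 0.54%. *Wasf2* thus had the largest share in every library of both groups. The log2 ratio of *Wasf3* to *Wasf2* counts, not divided by length, was −3.86 ± 0.96 in WT and −1.34 ± 0.22 in HOMO (SD, n = 4 each). This was a difference of 2.52 with separate groups, and the ratio of *Wasf1* to *Wasf2* differed by 0.95, also with separate groups. Both had p = 0.0286, the smallest that the exact permutation test of 4 against 4 libraries can give, and an adjusted p of 0.0514, so neither passed after correction. On the summed libraries, where that test cannot go below 0.1, p was 0.2 for *Wasf3* to *Wasf2* (adjusted p = 0.36). For *Wasf1* to *Wasf2* it was 0.1 (adjusted p = 0.225).

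**Figure D2:**
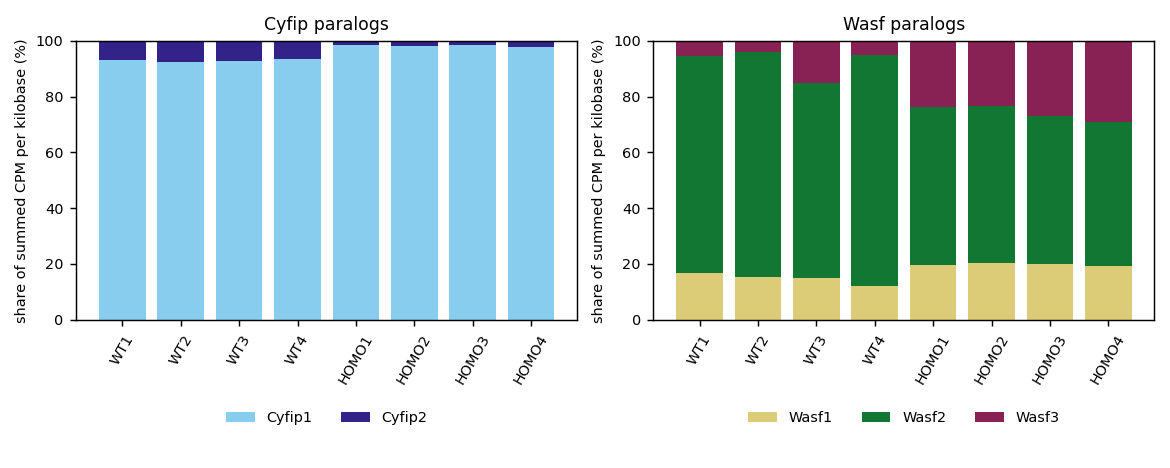
Share of each paralog, in percent of the summed CPM per kilobase of its place in the complex, as stacked bars for each WT and HOMO library. The *Wasf3* share lies at 3.96% to 15.2% in WT and 23.4% to 29.2% in HOMO, and the *Cyfip2* share at 6.44% to 7.71% in WT and 1.43% to 2.42% in HOMO.

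Cyfip proteins are the subunits that bind active Rac. *Cyfip2* (chromosome 11, 46193850 to 46312859, minus strand) stood at 6.75, 7.46, 6.83 and 7.28 CPM in WT1 to WT4 and at 0.981, 1.30, 1.42 and 1.85 CPM in HOMO1 to HOMO4. The WT libraries were close to each other, and all HOMO libraries were far below them. WT libraries averaged 7.08 ± 0.345 CPM and HOMO libraries 1.39 ± 0.362 CPM (SD, n = 4 each), 5.09-fold lower. On the log2 scale this was −2.35 (SE 0.26, 95% interval −2.94 to −1.76, edgeR adjusted p = 0.00217). The counts behind it were 120, 174, 119 and 188 in WT and 22, 43, 28 and 37 in HOMO. The WT3 and WT4 libraries, rich in macrophage RNA and low in proliferation markers, did not stand apart for *Cyfip2*. Without both the log2 fold change was −2.36 (adjusted p = 0.00215, edgeR). On the summed libraries it was −2.32 and no longer called (adjusted p = 0.210, edgeR). *Cyfip2* is known from neurons, and the neuronal and glial markers summed to 43.2 to 189.8 CPM in WT and 28.9 to 46.1 CPM in HOMO, with 3 of 5 tested, 1 called higher and 1 lower. Of these 5, *Rbfox3* had no more than 3 counts in any library. Their part in the result was not tested.

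*Cyfip1* (chromosome 7, 55841745 to 55932602), the paralog found in most tissues, stood at 153, 150.1, 145 and 178 CPM in WT1 to WT4 and at 114, 117, 138 and 126 CPM in HOMO1 to HOMO4. The groups did not overlap, with WT3 the lowest WT library and HOMO3 the highest HOMO library. Its log2 fold change was −0.34 (SE 0.12, 95% interval −0.62 to −0.06, edgeR adjusted p = 0.0958), which was not a call. Genes of chromosome 7 had a median log2 fold change of −0.29 over 1045 genes, beside −0.34 for *Cyfip1*. In WT3 the median gene of this chromosome stood 0.36 above the other WT libraries on the log2 scale, whereas *Cyfip1* was lowest there among WT. The part of the chromosome in the result was not tested. In addition, 12.5% of the exon bases of *Cyfip1* lie opposite exons of *Nipa2* and *Gm44616*. How reads of the overlap were counted is not given, so the *Cyfip1* values are uncertain to that extent.

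The Cyfip total was 14.1 ± 1.24 CPM per kb in WT and 10.5 ± 0.92 in HOMO (SD, n = 4 each). The log2 difference was −0.42, the groups were separate, and the exact permutation p was 0.0286 (adjusted p = 0.0514), which did not pass after correction. The *Cyfip2* share of that total was 6.89%, 7.71%, 7.33% and 6.44% in WT1 to WT4 and 1.43%, 1.83%, 1.70% and 2.42% in HOMO1 to HOMO4. *Cyfip1* was therefore over 92% of the Cyfip mRNA in every library. The log2 ratio of *Cyfip2* to *Cyfip1* counts, not divided by length, was −4.46 ± 0.12 in WT and −6.48 ± 0.32 in HOMO (SD, n = 4 each). This was a difference of −2.03 with the same exact permutation p of 0.0286 and adjusted p of 0.0514. On the summed libraries this ratio and the Cyfip total each had an exact permutation p of 0.1, the smallest possible there (adjusted p = 0.225).

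*Rac1* (chromosome 5, 143503634 to 143528036, minus strand) encodes the GTPase that most cells use for this pathway. It stood at 427, 415, 448 and 379.9 CPM in WT1 to WT4 and at 318, 303, 331 and 339 CPM in HOMO1 to HOMO4. Every HOMO library was below every WT library. WT libraries averaged 418 ± 28.6 CPM and HOMO libraries 323 ± 15.7 CPM (SD, n = 4 each). The log2 fold change of −0.37 (SE 0.12, 95% interval −0.64 to −0.10) had an edgeR adjusted p of 0.0711. DESeq2 gave an adjusted p of 0.0185 and limma-voom with sample weights 0.00140, in both with a log2 fold change short of 0.6, and with WT3 and WT4 both left out edgeR gave −0.39 (adjusted p = 0.0133). Of the exon bases of *Rac1*, 51.4% (2309 bases) lie opposite exons of *Daglb*, and whether the counting used strand is not given in the sources used here, so the *Rac1* values are uncertain to that extent.

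*Rac3* (chromosome 11, 120721470 to 120723969) stood at 2.87, 2.36, 8.26 and 6.97 CPM in WT1 to WT4 and at 2.72, 3.03, 2.18 and 2.56 CPM in HOMO1 to HOMO4. WT3 and WT4 were high, and WT1 and WT2 lay among the HOMO libraries. The log2 fold change was −0.96 (SE 0.43, 95% interval −1.93 to 0.01, edgeR adjusted p = 0.158). In WT3 and WT4 the macrophage markers summed to 1989 and 1164 CPM and the proliferation markers to 117 and 51.1 CPM. Mesothelial markers, and those of smooth muscle and pericytes, were also higher there than in WT1 and WT2. Without both libraries the log2 fold change of *Rac3* was 0.0088 (adjusted p = 0.980, edgeR). The Rac total, nearly all of it *Rac1*, was 96.9 ± 6.85 CPM per kb in WT and 73.8 ± 3.28 in HOMO (SD, n = 4 each), a log2 difference of −0.39 with separate groups (exact permutation p = 0.0286, adjusted p = 0.0514). On the summed libraries this total had an exact permutation p of 0.1 (adjusted p = 0.225). The log2 ratio of *Rac3* to *Rac1* differed by −0.40 with overlapping groups (exact permutation p = 0.4, adjusted p = 0.6).

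*Nckap1* (chromosome 2, 80500512 to 80581380) encodes the large scaffold that pairs with Cyfip and has no widely expressed paralog. It stood at 390.3, 401, 353 and 434 CPM in WT1 to WT4 and at 304, 306, 306 and 313 CPM in HOMO1 to HOMO4. The HOMO libraries were nearly level and all lay below WT3, the lowest WT library. WT libraries averaged 395 ± 33.2 CPM and HOMO libraries 308 ± 3.996 CPM (SD, n = 4 each), and the log2 fold change was −0.36 (SE 0.12, 95% interval −0.63 to −0.09, edgeR adjusted p = 0.0770). It was −0.36 with WT3 and WT4 both left out (adjusted p = 0.00995) and had an adjusted p of 0.0360 in DESeq2, in each case with a fold change short of the call.

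The Abi proteins hold the Wasf protein in the complex. *Abi1* (chromosome 2, 22940073 to 23040241) stood at 196, 198, 125 and 115 CPM in WT1 to WT4 and at 162, 166, 160.0 and 165 CPM in HOMO1 to HOMO4. WT1 and WT2 were above all HOMO libraries and WT3 and WT4 below them all. The log2 fold change of 0.05 (SE 0.20, 95% interval −0.41 to 0.50, edgeR adjusted p = 0.901) averaged over this split, and with WT3 and WT4 both left out it was −0.27 (adjusted p = 0.0207). *Abi2* (chromosome 1, 60409619 to 60481158) stood at 45.0, 45.3, 34.0 and 37.7 CPM in WT1 to WT4 and at 38.2, 34.5, 51.8 and 56.2 CPM in HOMO1 to HOMO4, with overlapping groups, HOMO3 and HOMO4 being the highest. Its log2 fold change was 0.16 (SE 0.19, 95% interval −0.28 to 0.59, edgeR adjusted p = 0.603). The Abi total was 44.0 ± 11.7 CPM per kb in WT and 45.8 ± 1.25 in HOMO (SD, n = 4 each), a log2 difference of 0.10 (exact permutation p = 0.6, adjusted p = 0.675). The log2 ratio of *Abi2* to *Abi1* differed by 0.05 (exact permutation p = 0.8, adjusted p = 0.8).

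**Figure D3:**
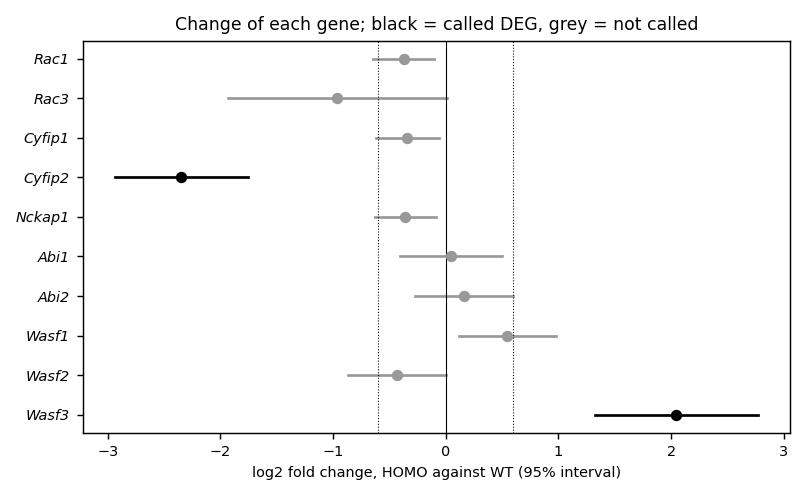
Log2 fold change (HOMO minus WT) of each member from edgeR, with its 95% interval, dotted lines at the fold threshold and DEGs in black. *Wasf3* (2.05) and *Cyfip2* (−2.35) lie beyond the threshold with their whole interval, while *Rac1*, *Cyfip1* and *Nckap1* lie between −0.37 and −0.34.

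The order of the members by CPM per kb in WT was *Rac1* (92.9 ± 6.36), *Nckap1* (79.5 ± 6.69), *Abi1* (39.2 ± 11.1), *Wasf2* (16.2 ± 4.03), *Cyfip1* (13.1 ± 1.22), *Abi2* (4.74 ± 0.65), *Rac3* (3.96 ± 2.28), *Wasf1* (3.01 ± 0.52), *Wasf3* (1.40 ± 0.64) and *Cyfip2* (1.00 ± 0.05; SD, n = 4 each). Neighbours overlapped between libraries for *Rac1* and *Nckap1*, for *Wasf2* and *Cyfip1*, for *Abi2*, *Rac3* and *Wasf1*, and for *Wasf3* with both *Wasf1* and *Cyfip2*. In HOMO the order was *Rac1* (71.8), *Nckap1* (62.0), *Abi1* (40.5), *Wasf2* (12.0), *Cyfip1* (10.3), *Wasf3* (5.78), *Abi2* (5.29), *Wasf1* (4.40), *Rac3* (2.03) and *Cyfip2* (0.196) CPM per kb. *Wasf3* was at the percentile 24.5 of all genes tested in WT and 52.9 in HOMO and stood above *Wasf1* in each HOMO library, and *Cyfip2* was at the percentile 20.1 in WT and 4.72 in HOMO. In HOMO, *Wasf2* and *Cyfip1*, and *Wasf3*, *Abi2* and *Wasf1*, did not separate between libraries. No stretch of 50 bases was shared between paralogous members, and shared stretches with other genes made up 0.524% of *Cyfip1*, 0.314% of *Abi2* and none of the other 8.

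Around the complex, 85 other genes of the pathway were listed by role, and 79 were tested. Of these 2 were upregulated and 5 were downregulated, 8.86% in all against 12.1% of all genes, and their median log2 fold change was −0.23. Among the small and blood-cell partners of the members, 4 of 5 were tested and none was called. *Brk1*, the smallest subunit of the complex, stood at 84.2, 87.3, 193 and 117 CPM in WT1 to WT4 and at 94.6, 95.5, 84.3 and 82.4 CPM in HOMO1 to HOMO4, a log2 fold change of −0.43 (edgeR adjusted p = 0.284) with WT3 the highest library. The blood-cell GTPase *Rac2* stood at 1.58, 1.46, 18.2 and 12.2 CPM in WT1 to WT4 and at 0.267, 0.212, 3.14 and 4.16 CPM in HOMO1 to HOMO4, so it followed the macrophage markers across libraries. Its log2 fold change of −2.12 (SE 1.14, edgeR adjusted p = 0.235) was 0.33 with WT3 and WT4 both left out.

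The Rac exchange factors load Rac with GTP. Of 18 tested, 1 was upregulated and none was downregulated. This was *Spata13* (Asef2; chromosome 14, 60634001 to 60764556), which stood at 2.81, 2.83, 4.19 and 2.67 CPM in WT1 to WT4 and at 62.2, 56.3, 49.2 and 41.2 CPM in HOMO1 to HOMO4. All HOMO libraries were far above all WT libraries. Its log2 fold change was 4.06 (SE 0.22, edgeR adjusted p = 1.41e-04) and lay between 3.97 and 4.23 when any 1 library was left out. For most libraries a near-identical one then stayed in, so this range does not show what leaving out a whole unit would do. On the summed libraries the log2 fold change of *Spata13* was 4.03 and no longer called (adjusted p = 0.0864, edgeR). *Arhgef4* (Asef), its close relative, had a log2 fold change of −0.38 (edgeR adjusted p = 0.367), and −0.62 (adjusted p = 0.0499) with WT3 and WT4 both left out.

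Most of the listed Rac inhibitors return Rac to its resting form or hold it there. Of 13 tested, 3 were downregulated and none was upregulated, beside 6.18% lower and 5.94% higher over all genes. Of the 3, *Arhgap24* was the only one still called with HOMO1, HOMO2 or HOMO4 left out, so the count is no result about the inhibitors as a group. *Arhgap24*, a GTPase-activating protein for Rac, stood at 45.3, 52.0, 76.0 and 68.9 CPM in WT1 to WT4 and at 16.1, 14.9, 14.4 and 18.1 CPM in HOMO1 to HOMO4, with a log2 fold change of −1.93 (SE 0.19, edgeR adjusted p = 0.00162). *Arhgap22*, of the same class, stood at 3.99, 3.65, 4.19 and 1.78 CPM in WT1 to WT4 and at 0.490, 0.424, 1.42 and 1.10 CPM in HOMO1 to HOMO4, with a log2 fold change of −1.99 (SE 0.48, edgeR adjusted p = 0.0319), and 36.9% of its exon bases lie opposite *Gm15512*. The median gene of its chromosome 14 stood at −0.23 in WT4 against the other WT libraries, and *Arhgap22* was lowest there among WT. The part of that chromosome in the result was not tested. *Fam49a* (CYRI-A), which binds active Rac, stood at 6.75, 6.05, 14.3 and 12.9 CPM in WT1 to WT4 and at 3.43, 3.09, 4.87 and 5.41 CPM in HOMO1 to HOMO4. Its log2 fold change of −1.25 (SE 0.35, edgeR adjusted p = 0.0491) was −0.61 (adjusted p = 0.122) with WT3 and WT4 both left out, and its call was lost. Genes of chromosome 12, which holds *Fam49a*, had a median log2 fold change of 0.24. Against the other WT libraries their median gene stood at 0.65 in WT4 and at −0.20 in WT3, where *Fam49a* was highest. The part of the chromosome in the result was not tested.

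Downstream of the Wasf tail, 1 of the 10 Arp2/3 subunits was called. With all libraries the 10 had log2 fold changes from −0.64 to −0.03 with a median of −0.30, and 52.7% of all genes tested were below 0. This shared sign rested on WT3 and WT4: with both left out, *Actr3b*, *Arpc1a*, *Arpc2* and *Arpc5* were above 0 and 6 subunits below, from −0.43 to 0.24 with a median of −0.21. With limma-voom sample weights 7 were below 0. The called subunit was *Arpc3*, which stood at 142, 134, 221 and 179 CPM in WT1 to WT4 and at 115, 105, 105 and 109 CPM in HOMO1 to HOMO4, with a log2 fold change of −0.64 (SE 0.17, edgeR adjusted p = 0.0431). Of the 8 other activators of Arp2/3 tested, *Cttn* was called. This gene encodes cortactin, which stabilises actin branches, and it stood at 355, 366, 543 and 515 CPM in WT1 to WT4 and at 271, 268, 296 and 304 CPM in HOMO1 to HOMO4, with a log2 fold change of −0.65 (SE 0.18, edgeR adjusted p = 0.0445). Genes of its chromosome 7 had a median log2 fold change of −0.29, and in WT3 their median gene stood 0.36 above the other WT libraries. The part of the chromosome in the *Cttn* result was not tested. Of the 13 genes of branch turnover and Arp2/3 inhibition tested, *Ssh3* was upregulated. It encodes a phosphatase of the slingshot family, whose members activate cofilin, and it stood at 55.0, 58.6, 33.9 and 28.1 CPM in WT1 to WT4 and at 94.3, 92.8, 75.9 and 79.5 CPM in HOMO1 to HOMO4, with a log2 fold change of 0.96 (SE 0.25, edgeR adjusted p = 0.0364). Genes of its chromosome 19 had a median log2 fold change of 0.01. Against the other WT libraries their median gene stood at 0.16, 0.15, −0.02 and −0.22 in WT1 to WT4. The part of the chromosome in the *Ssh3* result was not tested. *Arpc3*, *Cttn*, *Ssh3* and *Fam49a* were no longer DEGs with WT3 and WT4 both left out, while *Spata13*, *Arhgap22* and *Arhgap24* were. In that edgeR fit *Arpc3* (−0.35, adjusted p = 0.0159), *Cttn* (−0.34, adjusted p = 0.0244) and *Ssh3* (0.59, adjusted p = 0.0132) fell short of the fold threshold only. *Fam49a* fell short of the adjusted p (0.122). With HOMO1, HOMO2 or HOMO4 left out, *Spata13* and *Arhgap24* were the only called genes of the 85.

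None of the 11 Rac effectors and WAVE partners was called. *Wasl*, the widely expressed relative of the Wasf genes, and the exchange factor subunit *Elmo2* passed the edgeR test but not the fold threshold, with log2 fold changes of 0.55 (adjusted p = 0.0373) and −0.41 (adjusted p = 0.0422); both were chosen after their values were seen. Of the myosin light chain kinases, which drive contraction and not branching, 2 of 4 were tested and edgeR called none. *Mylk* stood at 12.7, 18.9, 239.9 and 61.6 CPM in WT1 to WT4 and at 512, 482.5, 404 and 449.9 CPM in HOMO1 to HOMO4, so that the groups did not overlap and the WT libraries were far apart. Its log2 fold change was 2.47 (SE 0.84, edgeR adjusted p = 0.0829), and with WT3 and WT4 both left out it was 4.86 (adjusted p = 1.20e-04). The latter fit kept only the near-identical WT1 and WT2 in WT. DESeq2 called *Mylk* upregulated at 2.48 (adjusted p = 0.00613), and limma-voom with sample weights called it too. The smooth muscle and pericyte markers were highest in WT3, at 289 CPM; their part in the result was not tested. *Mylk3* had a log2 fold change of 0.51 (edgeR adjusted p = 0.310), and *Mylk2*, *Mylk4* and *Abi3* had too few counts to be tested.

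**Figure D4:**
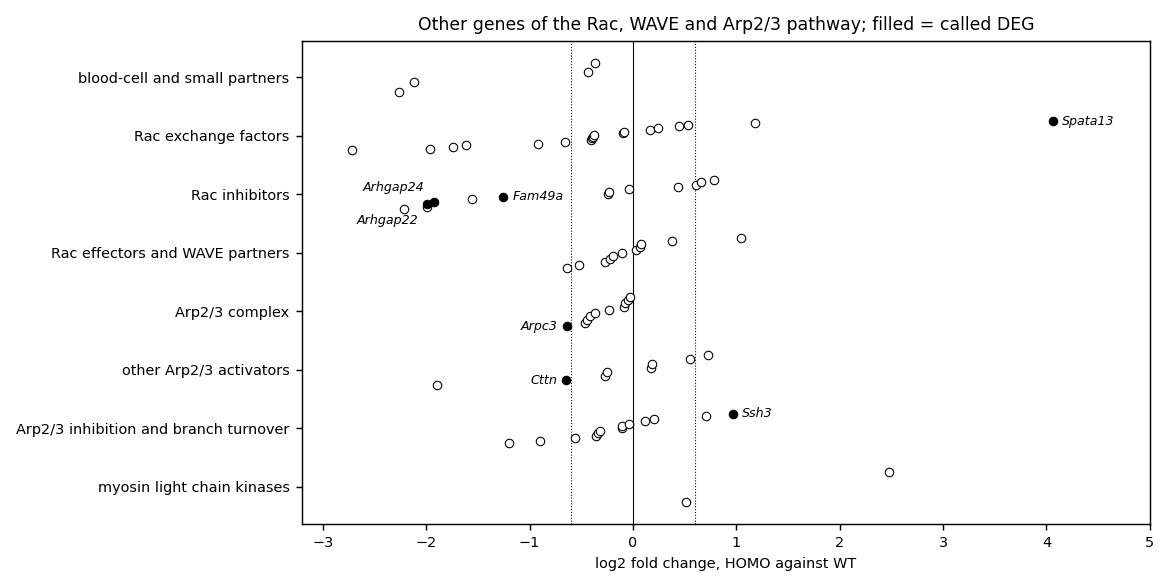
Log2 fold change (HOMO minus WT) of the 79 other pathway genes tested, grouped by role, with DEGs as filled, named points and dotted lines at the fold threshold. *Spata13* lies far to the right at 4.06, the 3 called Rac inhibitors lie between −1.99 and −1.25 and the Arp2/3 subunits between −0.64 and −0.03, of which 4 lie above 0 when WT3 and WT4 are both left out.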

How the data were processed

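RNA was extracted with trizol from cultured primary lung fibroblasts and gave 8 libraries. The number of cultures is not given in the sources used here. Per the labels and the study's methods, the authors trimmed reads with fastp, aligned them to mm10 (GRCm38) with STAR and deposited whole-number counts per gene from featureCounts; strand settings and annotation version are not given in the sources used here. Every column of values was used. The table's name refers to an outlier taken out; what was removed is not given in the sources used here, and a removal could narrow the spread behind the p-values. The 54532 entries held 27324 genes with a count, and 14150 passed edgeR's filterByExpr. Counts were fitted with edgeR 4.0.16 (TMM, quasi-likelihood, 4 WT against 4 HOMO, no covariate) in R 4.3.3, with Benjamini-Hochberg adjustment. The script was tested on simulated data. Ratios of paralogs (5) used counts, not divided by length, with 0.5 added to each side. Totals of a place in the complex (4) used CPM per kb of merged exons. Both were tested with exact permutation tests. Alternatives used limma 3.58.1 and DESeq2 1.42.0, other scalings and filters, the replicate number as a block, and libraries left out; leaving out WT3 and WT4 together was chosen after seeing the data. Positions are from GENCODE M21. The members and lists were chosen with earlier results of these data known. Named were all members, the called genes of 8 pathway lists (at most 4 per direction) and the actin genes that the study discusses; the 8 lists of cell markers were summed.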

Additional observations from a re-analysis of the deposited data

How the results depend on the processing

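The calls of *Wasf3* and *Cyfip2* held in all alternatives but 1. When the near-identical libraries were summed to 3 WT and 2 HOMO units, *Wasf3* was at 1.95 (edgeR adjusted p = 0.252) and *Cyfip2* at −2.32 (adjusted p = 0.210), so 0 members, 0 other pathway genes and 0 of all genes were called, while 2057 genes had an unadjusted p below 0.05; no other tool was run on the sums. With 1 library left out, 2 to 2 members were called, 2 to 7 other pathway genes and 507 to 2192 of all genes, against 7 and 1716. *Wasf3* then lay between 1.87 and 2.40 (adjusted p 0.00141 to 0.0242) and *Cyfip2* between −2.50 and −2.21 (0.00227 to 0.0146). For most libraries a near-identical one stayed in, so these ranges do not show what leaving out a whole unit would do. The counts of DEGs over all genes were 3573 with limma-voom weights, 2913 with DESeq2, 3117 without WT3 and WT4, and 398 at an adjusted p below 0.01. Without WT3 and WT4 only the near-identical WT1 and WT2 were left in WT, so that count rests on a WT spread that may be technical. Of the other pathway genes, 4 were called with no filter on low counts, 12 with limma-voom, 13 with DESeq2, 11 without WT3 and WT4, and 2 at an adjusted p below 0.01. Directions turned for *Rac3* (0.025 with limma-voom and 0.0088 without WT3 and WT4) and *Abi1* (−0.26 and −0.27), for the *Rac3* to *Rac1* ratio (0.38) and the Abi total (−0.24) without WT3 and WT4, and for the *Abi2* to *Abi1* ratio on the sums (−0.022). With 1 library left out, *Abi1* lay between −0.081 and 0.17, the *Abi2* to *Abi1* ratio between −0.060 and 0.18, the Abi total between −0.030 and 0.21 and the Wasf total between −0.014 and 0.21. The cause was not tested; limma-voom gave WT3 and WT4 weights of 0.0927 and 0.164, against 0.910 to 8.14 for the others. The replicate block, with the library number as a term, moved the count of DEGs to 947 and that of other pathway genes to 10. Libraries of the same number did not deviate together (correlations −0.09, −0.04, 0.01 and −0.12), no number correlated best with itself, and the exact tests with such pairing could not go below p = 0.125. *Cyfip2* in HOMO rested on 22 to 43 counts, which limits its precision.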
